A study of Mus musculus with 4 samples.

Results

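The 35 genes described here mark macrophages or serve their phagocytic functions. They cover pan-macrophage genes, genes of interstitial and peritubular macrophages of the testis, Fc receptors, complement C1q chains and scavenger receptors, and they were picked by gene symbol from a written list out of the 54920 genes of each count file. All 35 were present and all 35 passed edgeR's filter on low counts, as did 23952 genes in all. The cells were ID4-EGFP+ cells, sorted by fluorescence from dissociated mouse seminiferous tubules at postnatal day (P) 8 in order to enrich spermatogonial stem cells, and RNA was measured in 2 control and 2 *Cnot3*-cKO libraries. Control mice carried *Cnot3* flox/flox and *Id4-eGfp*, are labelled wild-type and lacked Cre. *Cnot3*-cKO mice carried *Cnot3* flox/flox, *Id4-eGfp* and *Ddx4*-creER, a tamoxifen-inducible Cre driven by a germ cell gene. All mice of both groups had received 4-OHT injections from day 1 to day 3. The study calls its RNA-seq replicates biological and gives a larger number of them than the libraries per group analysed here. How many animals gave each library is not stated. The p-values measure the spread between these libraries. For each gene edgeR gave more weight to a trend shared by all genes than to the gene's own spread.

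Macrophages are phagocytes that depend on the receptor CSF1R and its ligands CSF1 and IL-34 for survival, and on the transcription factor PU.1, encoded by *Spi1*, for their identity. They bind antibody-coated particles through Fc receptors, bind complement C1q and apoptotic cells through other receptors, and signal through adaptors that carry an immunoreceptor tyrosine-based activation motif (ITAM). In the testis, interstitial macrophages lie beside Leydig cells and carry CSF1R and CD206 (*Mrc1*), while peritubular macrophages lie on the tubule wall and carry MHC class II. In the testis epithelium itself, Sertoli cells, not macrophages, take up dying germ cells.

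Libraries held 22192964 to 43378493 counted reads. Levels are given as CPM, reads divided by the TMM-scaled library size and multiplied by 1e6, and 3 reads, taken as the floor of detection, were worth 0.0713 to 0.132 CPM. *Cnot3*, the deleted gene, had 2362 and 2114 reads in the control libraries against 435 and 571 in the *Cnot3*-cKO (log2 fold change -1.48, standard error 0.13, adjusted p = 1.48e-05). The labelled cell type was checked on 10 germ cell genes, which together held 4490.1 to 5246 CPM in each library, with *Dppa3* alone under 2 CPM in all 4. The pan-germ cell gene *Dazl* averaged 2487 CPM over the controls against 2144 CPM in the *Cnot3*-cKO, while the 35 macrophage genes together received 0.0486% and 0.0315% of the reads of the controls against 0.107% and 0.0890% in the *Cnot3*-cKO.

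All complement and oxidase genes and about as many scavenger and Fc receptor genes as not were called higher in the *Cnot3*-cKO libraries, while the ligand *Csf1* and the factors *Spi1* and *Irf8* were not called. A gene was called where edgeR's quasi-likelihood test gave an adjusted p below 0.01, over all tested genes, together with more than a 2-fold change. By this rule 21 of the 35 were called higher, against 4.03% of all tested genes. None was called lower, against 0.735% of all tested genes. At an unadjusted p under 0.05, 1 member was lower in edgeR and 1 in DESeq2, which also called 0 lower. The median log2 fold change was 1.23 over the 35 genes and 0.0089 over all tested genes. In 29 of the 35 the lower *Cnot3*-cKO library exceeded the higher control, as in 30.5% of all tested genes, and in 2 (*Irf8* and *Cd14*) the order was reversed, as in 28.6%. The remaining 4, *Csf1*, *Aif1*, *Fcgr1* and *Folr2*, overlapped between the groups. By role, the median was 1.65 for the oxidase genes, 1.48 for complement, 1.37 for scavenger and resident macrophage genes, 1.09 for pan-macrophage genes and 1.06 for Fc receptors and adaptors. Differences between roles were not tested. Summed over the 35 genes, the level was 495 and 325 CPM in the control libraries against 1046 and 871 CPM in the *Cnot3*-cKO, a ratio of group means of 2.34. When the test itself demanded a fold change above 2 (glmTreat), 0 of the 35 were called higher, and 16 had an unadjusted p under 0.05. In sorted bulk RNA, more macrophages among the sorted cells and more of these transcripts per cell cannot be told apart.

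**Figure D1:**
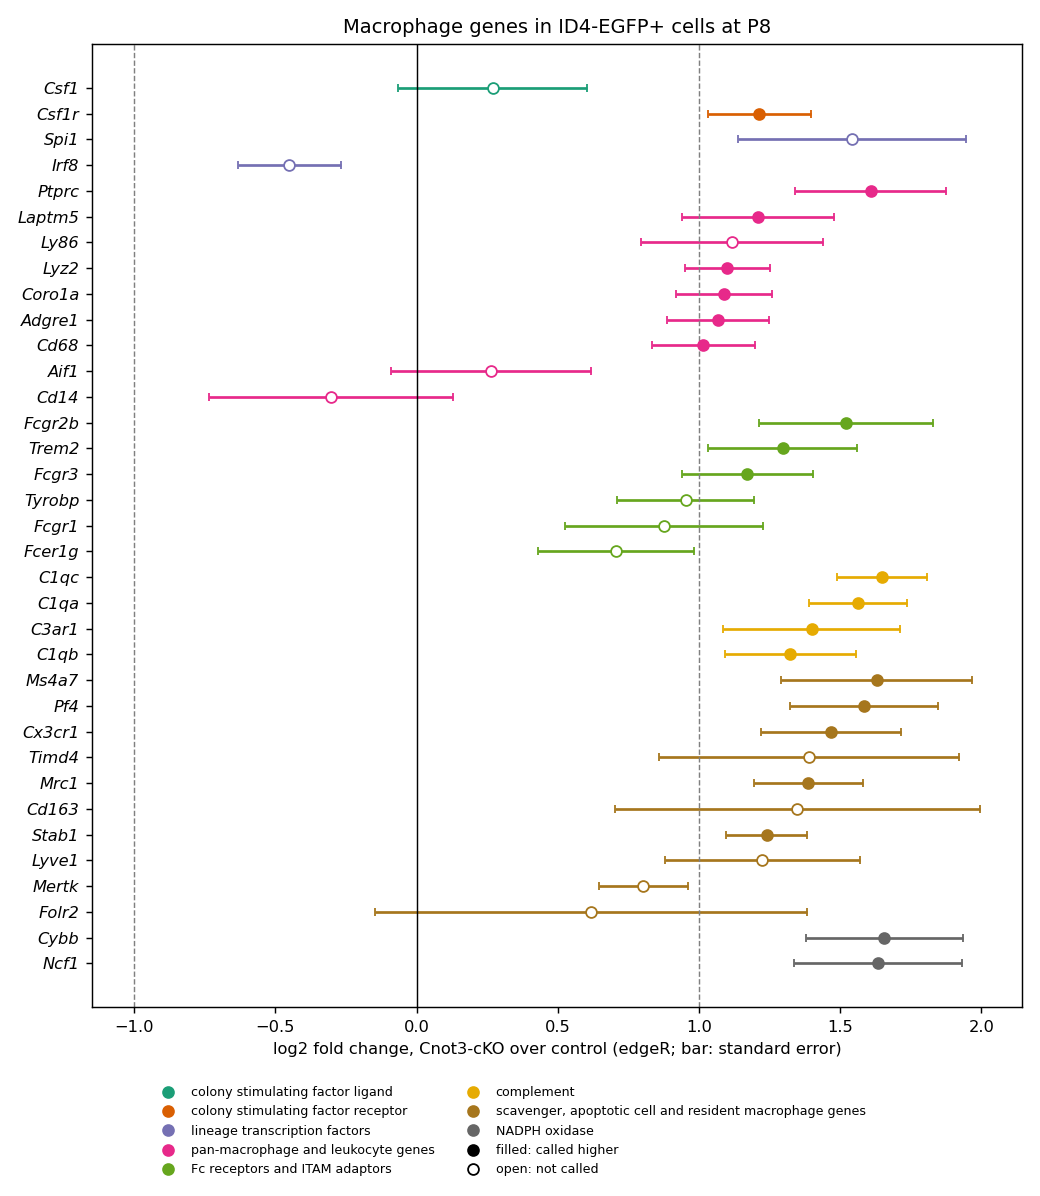
Log2 fold change of *Cnot3*-cKO over control for each of the 35 macrophage genes, grouped by role and coloured by it; bars are standard errors from the edgeR fit on 2 libraries per group, dashed lines mark a 2-fold change, and filled points were called higher. All 4 complement genes and both NADPH oxidase genes are filled, and the open points of *Irf8* at -0.45 and *Cd14* at -0.30 are the only values below 0.

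The control libraries were not alike in these genes. Control 1 was above control 2 in 32 of the 35, with a median log2 difference of 0.69, while over all tested genes the median difference was 0.015. The exceptions were *Spi1*, *Irf8* and *Coro1a*. Sertoli cell markers had a median difference between the controls of 0.049 and Leydig cell markers of 0.15. Between the *Cnot3*-cKO libraries, number 1 was above number 2 in 27 of the 35 genes, with a median difference of 0.27. Without control 2 the median log2 fold change of the members was 0.89, where that of all tested genes was 0.020. Without control 1 it was 1.57, where that of all tested genes was 0.046.

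The fits on 3 libraries leave 1 residual degree of freedom, and their prior degrees of freedom, which weigh a trend shared by all genes against a gene's own spread, were 155.0 or more, against 10.4 in the fit on all 4. Their p-values are too small for that reason and are not printed, and their calls follow mostly the 2-fold limit. In these fits 11 members were called whichever library was left out, namely *Ptprc*, *Fcgr2b*, *Trem2*, *C1qa*, *C1qc*, *Mrc1*, *Cx3cr1*, *Ms4a7*, *Pf4*, *Cybb* and *Ncf1*. The other 10 called genes lost the call without 1 of the libraries. *Csf1r*, *Laptm5*, *C1qb*, *C3ar1* and *Stab1* lost it only without control 2, *Coro1a* only without *Cnot3*-cKO 1, and *Adgre1*, *Cd68*, *Lyz2* and *Fcgr3* in either case. Without control 2 the log2 fold changes were 0.90 for *Csf1r*, 0.78 for *Laptm5*, 0.98 for *C1qb*, 0.89 for *C3ar1*, 0.98 for *Stab1*, 0.79 for *Adgre1*, 0.998 for *Cd68*, 0.86 for *Lyz2* and 0.84 for *Fcgr3*. Without *Cnot3*-cKO 1 they were 0.97 for *Coro1a*, 0.96 for *Adgre1*, 0.93 for *Cd68*, 0.93 for *Lyz2* and 0.96 for *Fcgr3*, so that all these values stayed above 0 but under the 2-fold limit. The fits were repeated with each gene's spread held at its estimate from all 4 libraries, a calculation added after the data were seen. Fewer members were called than in edgeR's own fits to 3 libraries. Without control 1 there were 18, without control 2 there were 3, without *Cnot3*-cKO 1 there were 5 and without *Cnot3*-cKO 2 there were 18. *C1qa* and *C1qc* were called in all 4 of these, and every other called member lost its call in at least 1. A lost call need not mean dependence on the library removed, as fewer libraries remain. Without control 1, *Fcgr2b* and *Trem2* lost it at log2 fold changes of 1.93 and 1.51, above their 1.52 and 1.30 with all 4 libraries.

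**Figure D2:**
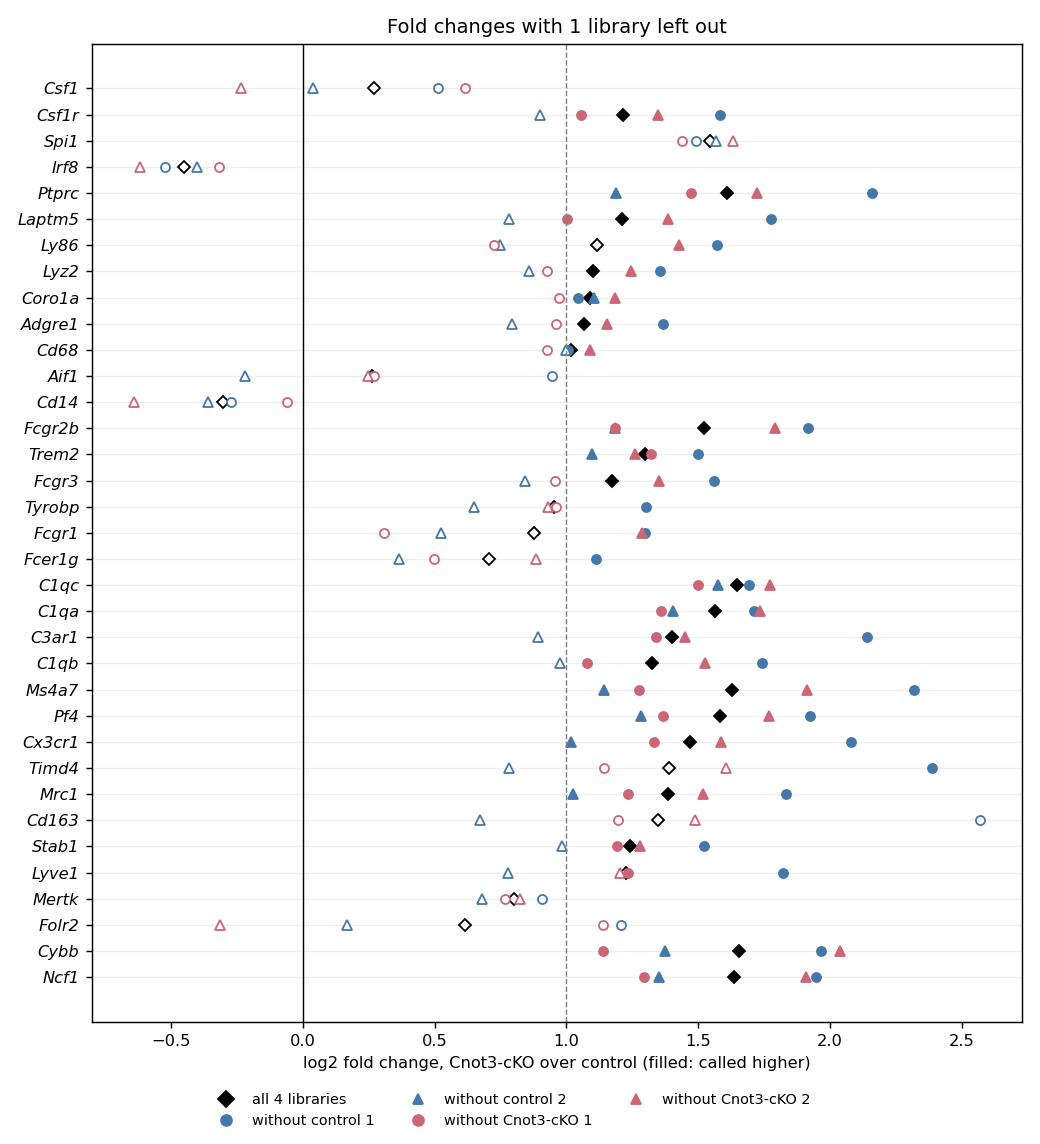
Log2 fold change of each macrophage gene in the fit on all 4 libraries (diamonds) and with 1 library left out (circles for libraries numbered 1, triangles for those numbered 2); filled symbols were called higher in edgeR's own fit to those libraries and the dashed line marks a 2-fold change. The blue circles (without control 1) lie furthest right and the blue triangles (without control 2) furthest left for many genes, as for *C3ar1*, from 0.89 to 2.14.

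Promoter sequences of 5 members are shown because their genes had the highest levels per kb of exon in the controls (*Lyz2*, *Mrc1*), lie side by side and moved together (*C1qb*, *C1qc*), or went the other way (*Irf8*). Each runs from 250 bases before to 50 bases after a RefSeq start on GRCm38.p6 (mm10), 5′ to 3′ on the gene's strand. Capitals mark AGGAAGT or its complement, the core of sites bound by PU.1 and other ETS factors, and in *Irf8*, which has no such match, the GC box GGGCGG. The windows are chr10:117282223-117282522 (reverse strand), chr2:14229164-14229463 (forward), chr4:136886151-136886450 (reverse), chr4:136892865-136893164 (reverse) and chr8:120736108-120736407 (forward).
Lyz2: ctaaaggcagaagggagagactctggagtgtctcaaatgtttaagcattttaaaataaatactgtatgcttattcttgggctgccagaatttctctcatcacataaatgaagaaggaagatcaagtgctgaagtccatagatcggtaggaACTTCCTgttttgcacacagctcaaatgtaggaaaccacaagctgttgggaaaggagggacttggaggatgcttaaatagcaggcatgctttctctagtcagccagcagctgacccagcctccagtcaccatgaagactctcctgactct
Mrc1: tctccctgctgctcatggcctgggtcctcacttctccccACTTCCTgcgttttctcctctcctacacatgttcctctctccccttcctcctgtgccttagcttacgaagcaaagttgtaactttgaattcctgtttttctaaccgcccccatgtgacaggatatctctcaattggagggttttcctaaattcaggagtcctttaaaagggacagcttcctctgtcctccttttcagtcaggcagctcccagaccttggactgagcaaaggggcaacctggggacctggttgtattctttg
C1qb: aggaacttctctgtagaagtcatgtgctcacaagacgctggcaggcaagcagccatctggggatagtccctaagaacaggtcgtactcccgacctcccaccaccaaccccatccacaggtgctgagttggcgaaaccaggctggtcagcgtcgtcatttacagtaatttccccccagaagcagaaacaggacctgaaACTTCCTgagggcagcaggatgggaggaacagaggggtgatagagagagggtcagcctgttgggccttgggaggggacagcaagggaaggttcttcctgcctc
C1qc: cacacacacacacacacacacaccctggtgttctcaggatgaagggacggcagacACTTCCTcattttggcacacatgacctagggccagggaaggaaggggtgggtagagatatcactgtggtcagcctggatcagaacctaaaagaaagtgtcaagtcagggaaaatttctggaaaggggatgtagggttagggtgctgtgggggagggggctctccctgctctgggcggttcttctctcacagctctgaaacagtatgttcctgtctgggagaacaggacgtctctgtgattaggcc
Irf8: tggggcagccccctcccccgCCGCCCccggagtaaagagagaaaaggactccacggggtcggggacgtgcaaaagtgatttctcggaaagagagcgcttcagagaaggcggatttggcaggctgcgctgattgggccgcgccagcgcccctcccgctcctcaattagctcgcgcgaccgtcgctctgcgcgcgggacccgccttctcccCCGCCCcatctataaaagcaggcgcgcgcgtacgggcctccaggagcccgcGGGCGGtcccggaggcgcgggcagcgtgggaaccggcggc

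The promoter table held 34 windows for 28 of the 35 genes. AGGAAGT, searched on both strands, was in 9 of the 34 windows (26.5%) against 9.35% of all 32851 promoters of this length. The 9 windows belong to 8 genes, *Lyz2*, *Ptprc*, *Fcgr1*, *C1qb*, *C1qc*, *Mrc1*, *Folr2* and *Pf4*. Its longer form GAGGAAGT, which contains it, was in the *C1qc* and *Pf4* windows, 5.88% of the 34 against 3.20% of all. The composite of an ETS and an IRF half-site was in 5 windows, those of *Cd68*, *Cybb*, *Fcgr2b*, *Folr2* and *Timd4* (14.7% against 2.72%). The C/EBP motif TTGCNNAA was in 14.7% against 10.8%, and the AP-1 motif TGACTCA in 8.82% against 5.20%. Less frequent in these windows were TATAAA (11.8% against 13.6%), GGGCGG (29.4% against 35.7%) and the E-box CACGTG (0 of 34 against 7.15%). A ratio of observed to expected CpG of at least 0.6 was found in 4 of the 34 windows (11.8%) against 35.8% of all promoters. Those 4 belong to *Csf1*, *Irf8*, *Ly86* and *Coro1a*, and the *Irf8* window shown had a ratio of 1.03 where that of *Lyz2* had 0.0680. Another *Irf8* window, at a different RefSeq start and not shown, had a ratio of 0.357 and no GGGCGG. Another *Coro1a* window had a ratio of 0.376. These counts describe letters in short windows and carry no test.

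The ligand and receptor of the colony stimulating factor axis differed. *Csf1r*, the receptor tyrosine kinase on which macrophages depend, was at 40.8 and 25.3 CPM in the control libraries against 84.3 and 69.1 CPM in the *Cnot3*-cKO. Its rise was from 33.04 ± 10.9 to 76.7 ± 10.8 CPM (mean ± SD, n = 2 libraries each) (log2 fold change 1.21, standard error 0.18, adjusted p = 6.77e-04). The call was lost without control 2 (log2 fold change 0.90, and with the spread held an edgeR adjusted p = 0.0266), and exons of *Hmgxb3* on the other strand overlap 873 bases of its exons, so that reads there depend on a strand setting not given in the sources used here. *Csf1*, the ligand, which other cells of the testis make, was at 3.38 and 2.42 CPM in the control libraries against 2.47 and 4.47 CPM in the *Cnot3*-cKO. The groups overlapped (log2 fold change 0.27, standard error 0.33, adjusted p = 0.640), and without *Cnot3*-cKO 2 the value was -0.23. Relative to *Csf1r*, per kb of exon, *Csf1* stood at 0.0906 and 0.105 in the control libraries against 0.0321 and 0.0707 in the *Cnot3*-cKO.

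Neither lineage transcription factor was called, and their values lay on opposite sides of 0. *Spi1* had few reads, 30 and 33 reads in the control libraries against 54 and 60 in the *Cnot3*-cKO. Its levels were 0.745 and 0.784 CPM in the control libraries against 2.38 and 2.09 CPM in the *Cnot3*-cKO, the *Cnot3*-cKO being higher without overlap (log2 fold change 1.54, standard error 0.40, adjusted p = 0.0171), and it was called at an adjusted p under 0.05. *Irf8*, a factor of monocyte and macrophage development, was at 13.7 and 14.9 CPM in the control libraries against 9.36 and 11.6 CPM in the *Cnot3*-cKO. The *Cnot3*-cKO libraries were the lower pair, without passing the test (log2 fold change -0.45, standard error 0.18, adjusted p = 0.104). Per kb, *Irf8* stood to *Csf1r* at 0.276 and 0.482 in the control libraries against 0.0908 and 0.137 in the *Cnot3*-cKO, so that the *Cnot3*-cKO ratios were below both control ratios. *Spi1* to *Csf1r* stood at 0.0391 and 0.0664 in the control libraries against 0.0606 and 0.0650 in the *Cnot3*-cKO, with overlapping groups.

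Of 9 pan-macrophage and leukocyte genes, 6 were called higher. *Adgre1*, which encodes the F4/80 antigen, was at 19.5 and 13.1 CPM in the control libraries against 36.3 and 31.9 CPM in the *Cnot3*-cKO (log2 fold change 1.07, standard error 0.18, adjusted p = 0.00145). *Lyz2*, lysozyme of macrophages, rose from 56.9 ± 13.8 to 122 ± 18.6 CPM (mean ± SD, n = 2 libraries each), with libraries at 66.7 and 47.1 against 135 and 109 CPM (log2 fold change 1.10, standard error 0.15, adjusted p = 3.54e-04). Reads that it shares with its close paralog *Lyz1* cannot be assigned in counts per gene. *Cd68*, a lysosomal glycoprotein, was tight in both groups, with 7.42 and 7.37 against 15.8 and 14.1 CPM, and lay just above the fold limit (log2 fold change 1.02, standard error 0.18, adjusted p = 0.00199). DESeq2 did not call it. *Ptprc*, the CD45 phosphatase of all leukocytes, had the largest change of the 9, at 7.67 and 3.90 CPM in the control libraries against 19.2 and 16.1 CPM in the *Cnot3*-cKO (log2 fold change 1.61, standard error 0.27, adjusted p = 0.00130). Leaving out a library gave *Ptprc* values from 1.19 to 2.16.

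*Laptm5*, a lysosomal membrane protein of leukocytes, was at 11.2 and 5.63 against 22.1 and 16.97 CPM (log2 fold change 1.21, standard error 0.27, adjusted p = 0.00730). *Coro1a*, an actin regulator of leukocytes, was at 8.79 and 9.15 against 20.5 and 17.7 CPM (log2 fold change 1.09, standard error 0.17, adjusted p = 8.72e-04). Control 1 was not above control 2 in this gene. *Ly86*, the partner of the toll-like receptor homolog CD180, did not overlap between the groups (3.92 and 2.21 against 8.25 and 5.10 CPM) but was not called (log2 fold change 1.12, standard error 0.32, adjusted p = 0.0275). *Aif1*, an actin-binding protein also named IBA1, overlapped between the groups at 4.27 and 1.90 against 3.66 and 3.74 CPM (log2 fold change 0.26, standard error 0.36, adjusted p = 0.671), and its value without control 2 was -0.22. *Cd14*, the co-receptor for lipopolysaccharide, was at 1.42 and 1.33 against 0.883 and 1.33 CPM, with 57 and 56 reads in the control libraries against 20 and 38 in the *Cnot3*-cKO. The *Cnot3*-cKO values were below the controls, the nearer pair almost equal, and the gene was not called (log2 fold change -0.30, standard error 0.43, adjusted p = 0.692). Per kb, *Cd14* stood to *Adgre1* at 0.136 and 0.190 in the control libraries against 0.0454 and 0.0778 in the *Cnot3*-cKO, lower in both *Cnot3*-cKO libraries.

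Of the 6 Fc receptor and ITAM adaptor genes, 3 were called higher. *Fcgr2b*, the inhibitory Fc receptor for IgG, was at 3.13 and 1.88 CPM in the control libraries against 8.70 and 5.73 CPM in the *Cnot3*-cKO (log2 fold change 1.52, standard error 0.31, adjusted p = 0.00438). *Fcgr3*, a low-affinity activating Fc receptor, was at 11.3 and 6.85 CPM in the control libraries against 23.2 and 17.7 CPM in the *Cnot3*-cKO (log2 fold change 1.17, standard error 0.23, adjusted p = 0.00374). The pair share a similar extracellular sequence, and how reads matching both were counted is not given in the sources used here. Per kb, *Fcgr2b* stood to *Fcgr3* at 0.0830 and 0.0822 in the control libraries against 0.112 and 0.0970 in the *Cnot3*-cKO, higher in both *Cnot3*-cKO libraries. *Fcgr1*, the high-affinity receptor, overlapped between the groups at 3.82 and 2.23 against 7.42 and 3.77 CPM (log2 fold change 0.88, standard error 0.35, adjusted p = 0.101). Without *Cnot3*-cKO 1 its log2 fold change was 0.31 and without *Cnot3*-cKO 2 it was 1.29.

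*Trem2*, a receptor for lipids and apoptotic cells that signals through TYROBP, was at 2.81 and 2.12 CPM in the control libraries against 5.91 and 6.18 CPM in the *Cnot3*-cKO (log2 fold change 1.30, standard error 0.26, adjusted p = 0.00447). The *Cnot3*-cKO libraries were close to each other. *Tyrobp*, the ITAM adaptor also called DAP12, was at 6.11 and 3.87 CPM in the control libraries against 9.53 and 9.78 CPM in the *Cnot3*-cKO, without overlap but not called (log2 fold change 0.95, standard error 0.24, adjusted p = 0.0154). *Fcer1g*, the ITAM-bearing gamma chain shared by Fc receptors, was at 5.81 and 3.45 CPM in the control libraries against 8.56 and 6.56 CPM in the *Cnot3*-cKO and was not called (log2 fold change 0.71, standard error 0.28, adjusted p = 0.0929). With 1 library left out, *Tyrobp* ran from 0.65 without control 2 to 1.30 without control 1, and *Fcer1g* from 0.36 to 1.11 in the same fits.

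All 4 complement genes were called higher. *C1qa*, *C1qc* and *C1qb* encode the chains of C1q, the recognition unit of the classical pathway, and macrophages are a main source of it. They lie next to each other on chromosome 4 (GRCm38, reverse strand), *C1qb* from 136880129 to 136886187, *C1qc* from 136889804 to 136893065 and *C1qa* from 136895917 to 136898803. *C1qa* was at 12.1 and 9.75 CPM in the control libraries against 36.5 and 28.2 CPM in the *Cnot3*-cKO (log2 fold change 1.56, standard error 0.17, adjusted p = 8.60e-05). *C1qb* was at 14.2 and 8.32 CPM in the control libraries against 32.5 and 23.9 CPM in the *Cnot3*-cKO (log2 fold change 1.32, standard error 0.23, adjusted p = 0.00175). *C1qc* rose from 9.65 ± 0.573 to 30.3 ± 3.98 CPM (mean ± SD, n = 2 libraries each), with libraries at 10.1 and 9.25 against 33.1 and 27.5 CPM (log2 fold change 1.65, standard error 0.16, adjusted p = 3.07e-05), the smallest p of all 35 genes. Per kb, *C1qa* stood to *C1qb* at 0.894 and 1.23 in the control libraries against 1.18 and 1.24 in the *Cnot3*-cKO and *C1qc* to *C1qb* at 0.400 and 0.626 in the control libraries against 0.574 and 0.648 in the *Cnot3*-cKO. In both ratios control 1 was the low library and the other 3 were close together. *C3ar1*, the receptor for the C3a fragment, was at 6.98 and 2.92 CPM in the control libraries against 13.6 and 12.6 CPM in the *Cnot3*-cKO (log2 fold change 1.40, standard error 0.31, adjusted p = 0.00747), and its controls differed by more than a factor of 2.

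Among the 10 scavenger, apoptotic cell and resident macrophage genes, 5 were called higher, against 4.03% of all tested genes. In 9 both *Cnot3*-cKO libraries were above both controls, as in 30.5% of all tested genes. *Mrc1*, the mannose receptor CD206 of interstitial macrophages, held 18.5% of all member reads in controls and 20.7% in *Cnot3*-cKO cells. It was at 96.8 and 55.2 CPM in the control libraries against 218 and 179.5 CPM in the *Cnot3*-cKO (log2 fold change 1.39, standard error 0.19, adjusted p = 4.09e-04). *Stab1*, a scavenger receptor also made by sinusoidal endothelium, was at 65.4 and 44.9 CPM in the control libraries against 134 and 127 CPM in the *Cnot3*-cKO (log2 fold change 1.24, standard error 0.14, adjusted p = 1.13e-04). Its standard error was the smallest of the 35. *Cx3cr1*, the fractalkine receptor, was at 27.5 and 13.1 CPM in the control libraries against 61.00 and 51.3 CPM in the *Cnot3*-cKO (log2 fold change 1.47, standard error 0.25, adjusted p = 0.00140). DESeq2 did not call it. *Ms4a7*, a membrane protein of resident macrophages, was at 5.07 and 2.23 against 13.8 and 8.87 CPM (log2 fold change 1.63, standard error 0.34, adjusted p = 0.00492). *Pf4*, a chemokine of platelets and of some resident macrophages, was at 4.25 and 2.71 against 11.9 and 9.01 CPM (log2 fold change 1.58, standard error 0.26, adjusted p = 0.00126). Of 5 megakaryocyte markers, 3 had 3 reads or fewer in every library and 1 (*Itga2b*) was tested. *Itga2b* was at 2.26 and 1.90 CPM in the control libraries against 3.80 and 4.43 CPM in the *Cnot3*-cKO. It was higher without overlap but not called (log2 fold change 0.99, standard error 0.29, adjusted p = 0.0294).

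*Mertk*, a receptor tyrosine kinase for apoptotic cells that Sertoli cells also express, was the 1 member that passed the p threshold but not the fold limit, at 14.1 and 11.98 CPM in the control libraries against 23.1 and 22.3 CPM in the *Cnot3*-cKO (log2 fold change 0.80, standard error 0.16, adjusted p = 0.00359). With it, 22 of the 35 were higher at an adjusted p under 0.01 without a fold limit, against 6.21% of all tested genes. *Lyve1*, a hyaluronan receptor of lymphatic endothelium and of resident macrophages, was at 2.61 and 1.26 against 4.46 and 4.57 CPM and not called (log2 fold change 1.23, standard error 0.35, adjusted p = 0.0249). *Timd4*, a phosphatidylserine receptor of long-lived resident macrophages, had 44 and 15 reads in the control libraries against 50 and 46 in the *Cnot3*-cKO (log2 fold change 1.39, standard error 0.53, adjusted p = 0.0863). *Cd163*, the haemoglobin scavenger receptor, had 29 and 8 reads in the control libraries against 29 and 30 in the *Cnot3*-cKO (log2 fold change 1.35, standard error 0.65, adjusted p = 0.170). *Folr2*, a folate receptor of resident macrophages, had 18 and 9 reads in the control libraries against 6 and 21 in the *Cnot3*-cKO, with overlapping groups (log2 fold change 0.62, standard error 0.76, adjusted p = 0.641). Its value without *Cnot3*-cKO 2 was -0.32, and 975 bases of its exons are overlapped by *Gm10602* on the other strand.

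Both NADPH oxidase genes were called higher. *Cybb*, the catalytic gp91phox subunit of the phagocyte oxidase on chromosome X, was at 7.95 and 5.25 CPM in the control libraries against 27.1 and 14.6 CPM in the *Cnot3*-cKO (log2 fold change 1.66, standard error 0.28, adjusted p = 0.00136), the largest log2 fold change of the 35. *Ncf1*, the cytosolic organizer p47phox, was at 2.88 and 1.90 CPM in the control libraries against 9.004 and 5.90 CPM in the *Cnot3*-cKO (log2 fold change 1.64, standard error 0.30, adjusted p = 0.00227). Both were higher in *Cnot3*-cKO 1 than in *Cnot3*-cKO 2, and the ratio of *Cybb* to *Ncf1* per kb was 1.74 and 1.74 in the control libraries against 1.90 and 1.56 in the *Cnot3*-cKO. Exons of *Gtf2ird2* on the other strand overlap 408 bases of *Ncf1*, and genes on the other strand overlap 155 exonic bases of *Fcgr2b*, 112 of *Stab1*, 78 of *Cx3cr1* and 26 of *Coro1a*. *Cyba* and *Ncf4*, which encode further subunits, had log2 fold changes of 0.36 and 1.59 and neither was called, *Ncf4* on 9 to 24 reads.

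Per kb of exon, which allows genes to be compared, *Lyz2* was the most abundant member in every library, at 50.7 and 35.8 CPM per kb in the control libraries against 103 and 82.7 CPM per kb in the *Cnot3*-cKO. *Mrc1* followed in the order of control means, at 15.2 and 8.67 CPM per kb against 34.3 and 28.2 in the *Cnot3*-cKO. Within each library *Mrc1* was above *C1qb* (13.03 and 7.65 against 29.9 and 22.0). It was above *C1qa* (11.7 and 9.37 against 35.1 and 27.2) only in control 1 and *Cnot3*-cKO 2. Differences between these genes were not tested. At the lower end *Cd163* was at 0.132 and 0.0348 CPM per kb in the control libraries against 0.234 and 0.192 CPM per kb in the *Cnot3*-cKO. *Irf8* moved from place 18 of 35 in controls to place 26 in *Cnot3*-cKO cells, and *Cybb* from 22 to 18.

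**Figure D3:**
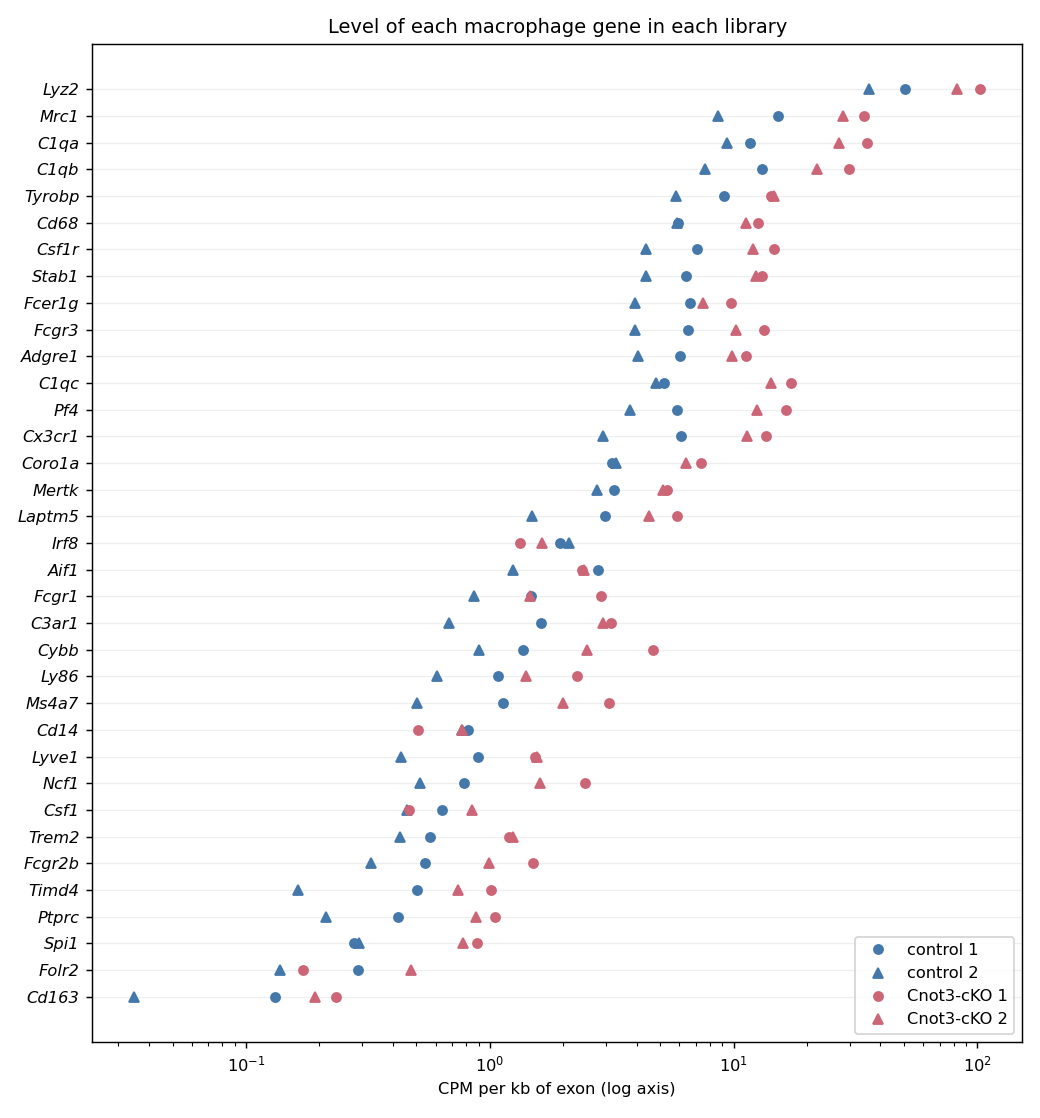
Level of each macrophage gene in each of the 4 libraries, in CPM per kb of exon on a log axis, ordered by the mean of the controls; blue symbols are controls and red symbols *Cnot3*-cKO, circles libraries numbered 1 and triangles those numbered 2. For 29 genes both red symbols lie to the right of both blue ones, *Irf8* and *Cd14* are the reverse, and *Aif1*, *Csf1*, *Fcgr1* and *Folr2* are mixed.

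Other genes of the same pathways, from lists written by symbol, were set beside the members. Of 6 partners of CSF1R and of the receptors AXL, TYRO3 and MERTK, 5 were tested and 3 were called higher. *Axl* rose by a log2 fold change of 1.73 (adjusted p = 2.18e-06), and the bridging ligands *Pros1* and *Gas6* by 1.33 (adjusted p = 2.09e-04) and 1.17 (adjusted p = 8.19e-06). *Mfge8*, another bridging protein, was at -0.28 and not called. *Il34*, the second CSF1R ligand, had 7 and 9 reads in the control libraries against 2 and 6 in the *Cnot3*-cKO and was not tested. Sertoli cells also use this system for dying germ cells, so these genes are not restricted to macrophages.

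Of 22 phagocytic signalling and uptake genes, 9 were called higher and none lower, the median change on the log2 scale being 1.24. Among its called genes whose average log2 CPM reached 1, the largest changes were those of the scavenger receptor *Marco* (1.67, adjusted p = 0.00196), the sialic acid lectin *Siglec1* (1.58, adjusted p = 0.00942) and the kinase *Lyn* (1.57, adjusted p = 8.79e-04). A further list of 27 genes largely restricted to macrophages had 16 called higher and 1 lower, with a median of 1.22. Under the same limit on the level, the largest changes among those called higher were those of the cytokine receptor chain *Csf2rb* (1.83, adjusted p = 0.00102), the lysosomal protease *Ctss* (1.73, adjusted p = 1.35e-04) and the lipid carrier *Apoe* (1.66, adjusted p = 1.70e-05). The gene called lower was *Sall1*, a zinc finger factor of microglia that other cells express as well, at 72.5 and 52.3 against 24.6 and 20.8 CPM (log2 fold change -1.46, standard error 0.16, adjusted p = 7.04e-05), named after its values were seen. Of 13 macrophage transcription factors outside the members, only *Maf* was called higher, at 14.1 and 6.82 against 24.01 and 21.1 CPM (log2 fold change 1.11, standard error 0.26, adjusted p = 0.00995). The list had a median of 0.53. Its abundant members *Klf4*, *Irf5* and *Mitf* had log2 fold changes of 0.0034, 0.046 and -0.56.

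Of 25 cytokine, chemokine and costimulatory genes, 13 passed the filter, 2 were called higher and 4 had 3 reads or fewer in every library (*Ccl4*, *Cxcl2*, *Cxcl13* and *Chil3*). The called genes were the costimulatory ligands *Cd80* at 1.94 and 1.24 against 5.25 and 3.88 CPM (log2 fold change 1.52, standard error 0.33, adjusted p = 0.00609) and *Cd86* at 2.98 and 2.97 against 7.28 and 6.32 CPM (log2 fold change 1.19, standard error 0.24, adjusted p = 0.00444). The whole list summed to 11.4 and 10.1 CPM in the control libraries against 24.9 and 21.2 CPM in the *Cnot3*-cKO. The 5 MHC class II genes, which mark peritubular macrophages, summed to 3.53 and 4.30 CPM in the control libraries against 12.05 and 4.85 CPM in the *Cnot3*-cKO, and none was called. In this list *Cnot3*-cKO 1 stood apart from the other 3 libraries, as in *Cd74*, the class II invariant chain, at 1.24 and 1.14 against 4.41 and 1.26 CPM (log2 fold change 1.23, standard error 0.50, adjusted p = 0.105).

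Most markers of Sertoli and Leydig cells were called higher, as were many of the macrophage genes. Most endothelial and all peritubular myoid markers were not called, which is not lack of a rise. All 10 Sertoli cell markers were called higher, such as *Amh* (2.62), *Dhh* (2.39) and *Sox9* (2.23 on the log2 scale), and their summed level was 226 and 214 CPM in the control libraries against 749 and 760.1 CPM in the *Cnot3*-cKO. Of 6 Leydig cell markers, 5 were tested and 4 called higher, with sums of 368 and 322 CPM in the control libraries against 831 and 896 CPM in the *Cnot3*-cKO, and *Insl3* was at 0 in every library. Of 10 endothelial markers, 9 were tested and 2 called higher (*Pecam1* and *Kdr*), with sums of 31.8 and 28.6 CPM in the control libraries against 43.4 and 51.2 CPM in the *Cnot3*-cKO. Of 5 peritubular myoid markers none was called, with sums of 13.6 and 16.2 CPM in the control libraries against 19.95 and 24.9 CPM in the *Cnot3*-cKO. In this list 3 log2 fold changes were above 0 and 2 below. *Acta2* passed the p threshold but not the fold limit, at 5.41 and 5.66 against 9.14 and 12.1 CPM (log2 fold change 0.94, standard error 0.21, adjusted p = 0.00828). The 10 germ cell markers, none of them called, summed to 4808 and 5246 CPM in the control libraries against 4490.1 and 4689.9 CPM in the *Cnot3*-cKO. Of the 10 markers of undifferentiated spermatogonia 2 were called higher, *Id4* (1.04) and *Eomes* (1.39 on the log2 scale), and 0 lower. Without the fold limit 4 were higher and 3 lower at an adjusted p below 0.01, and the lower ones held the most reads of the list in the controls, *Zbtb16* (-0.82, adjusted p = 1.93e-04), *Uchl1* (-0.80, adjusted p = 9.66e-05) and *Sall4* (-0.42, adjusted p = 0.00656). The list had sums of 1572 and 1529 CPM in the control libraries against 1264 and 1311 CPM in the *Cnot3*-cKO. The part of other testicular cells in the values of the macrophage genes was not tested. Unlike the macrophage genes, the Sertoli and Leydig cell sums differed little between the control libraries.

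**Figure D4:**
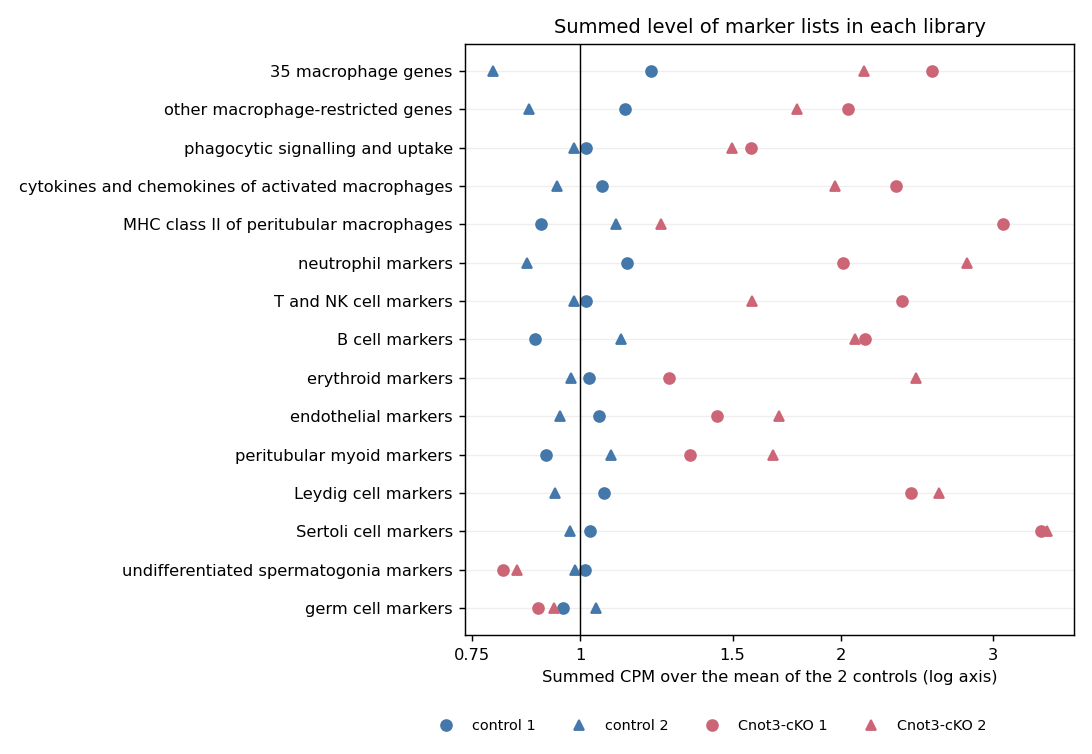
Summed CPM of the 35 macrophage genes and of 14 other marker lists in each library, divided by the mean of the 2 controls, on a log axis; blue symbols are controls and red symbols *Cnot3*-cKO, circles libraries numbered 1 and triangles those numbered 2. On this scale the 35 macrophage genes have the widest gap between the blue symbols of any list shown, and the red symbols of all lists but the lowest 2 lie to the right of the blue ones.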

How the data were processed

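The deposited files hold read counts per gene that the authors had not normalized. Per the labels and the study's methods, TruSeq Stranded Total RNA libraries were sequenced on a NextSeq 500, reads whose mean Phred score reached 20 were aligned with STAR to mm10, and counts were made with featureCounts on GENCODE M24. Replicates were not pooled. edgeR 4.0.16 in R 4.3.3 was fitted to all 4 libraries without covariates, with TMM scaling, the default low-count filter and quasi-likelihood F tests. Calls required a Benjamini-Hochberg adjusted p below 0.01 over 23952 genes and more than a 2-fold change. Standard errors are the log2 fold change divided by the square root of F. DESeq2 1.42.0, scaling, filter, thinning to the smallest library, block, threshold and left-out-library alternatives were run. Fits with 1 library left out were repeated with each gene's spread held from all 4 libraries. The procedure was tested on simulated data. The members, lists and tests were chosen with earlier results of these data known. All members are named; from other lists, up to 3 called genes with the largest change, if their average log2 CPM reached 1, and, where fewer than 3, up to 3 abundant genes. Gene models came from GENCODE M21 on GRCm38 (exons merged over isoforms), promoters from RefSeq on GRCm38.p6. Ratios between replicates used a pseudocount of 0.1 CPM. Figures were drawn with matplotlib 3.10.9. Protein sequences were not analysed here.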

Additional observations from a re-analysis of the deposited data

How the results depend on the processing

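With edgeR, 21 members were called higher and 0 lower, and 16 other settings were run. *Cnot3* had a log2 fold change of -1.48, which glmTreat against a fold change of 2 left uncalled at -1.48 (adjusted p = 0.0346), because that test asks for more by construction. The count of all tested genes called was 1141, and 92 by glmTreat, which called 0 members higher. An adjusted p under 0.05 gave 1736 genes and no fold change limit gave 2613. Leaving out 1 library gave 12 (without control 2) to 27 (without control 1) members higher and a median log2 fold change from 0.89 to 1.57. It moved the 3 members whose sign turned between -0.22 and 0.94 for *Aif1*, -0.23 and 0.62 for *Csf1*, and -0.32 and 1.21 for *Folr2*. The low values were without control 2 for *Aif1* and without *Cnot3*-cKO 2 for the others, and the cause was not tested. Fits on 3 libraries had prior degrees of freedom of 155.0 or more, against 10.4 with 4 libraries, 25.7 under the block and no finite value without a filter, so their p-values are too small. With the spread held from 4 libraries, added after seeing the data, 18, 3, 5 and 18 members (without control 1, control 2, *Cnot3*-cKO 1 and *Cnot3*-cKO 2) and 724, 560, 671 and 754 of all tested genes were called, and the signs turned as before (*Aif1* -0.21, *Csf1* -0.23, *Folr2* -0.31). Under the other settings except glmTreat 19 to 24 members were called higher and 0 lower. DESeq2 gave 19, and its adjusted p was NA for *Cd163* and *Folr2*. Scaling to germ cell markers shifted the median over all genes to 0.14 and gave 21. Libraries numbered 1 correlated by 0.0585 in their deviations over 18050 genes, a value that cannot show what a small set of genes shares. Among the 35 members, number 1 was above number 2 in 32 for the controls and in 27 for the *Cnot3*-cKO. Whether libraries of the same number were handled together is not stated and was not tested. The replicate block gave 23 members higher with a median of 1.27. With 2 libraries per group, an exact permutation test of 1 gene cannot give a p below 0.333.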

Other observations

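Markers of other blood cells were set beside the macrophage genes, and none was called. Many did not pass the low-count filter, and lack of a call is not lack of a rise. The median log2 fold change of the tested markers was 1.29 for B cells, 1.23 for erythroid cells and 1.15 for monocytes. It was 0.89 for T and NK cells, 0.78 for mast cells, 0.47 for neutrophils and 0.10 for dendritic cells. Over the 35 macrophage genes it was 1.23, and differences between lists were not tested. Of 10 neutrophil markers 3 were tested and 0 called, with summed levels of 2.23 and 1.71 CPM in the control libraries against 3.97 and 5.52 CPM in the *Cnot3*-cKO, and *S100a9* had 0 and 6 reads in the control libraries against 0 and 35 in the *Cnot3*-cKO. Of 5 monocyte markers 3 were tested and 0 called, and of 7 dendritic cell markers 4 were tested and 0 called. *Zbtb46* alone, averaging 45.03 CPM over the controls against 41.2 CPM in the *Cnot3*-cKO, held most of the dendritic cell list's reads. Of 9 T and NK cell markers 3 were tested and 0 called, with sums of 6.55 and 6.35 CPM in the control libraries against 15.2 and 10.2 CPM in the *Cnot3*-cKO. Of 5 B cell markers 3 were tested and 0 called, with sums of 1.27 and 1.59 CPM in the control libraries against 3.05 and 2.97 CPM in the *Cnot3*-cKO. Mast cell markers had 1 of 6 tested and 0 called, and 2 of the 6 had 3 reads or fewer in every library. Erythroid markers had 5 of 6 tested and 0 called, with sums of 8.14 and 7.75 CPM in the control libraries against 10.1 and 19.4 CPM in the *Cnot3*-cKO, where *Cnot3*-cKO 2 was the high library, while the macrophage genes were higher in *Cnot3*-cKO 1.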
